A study of Homo sapiens with 18 samples.

Results

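Bulk RNA of wild-type organoids was compared between Day 5 and Day 12. The comparison took the 3 libraries labelled Organoids Day 12, wild-type and the 3 labelled Organoids Day 5, wild-type, which are 6 of the 18 libraries of the series. They were cerebral organoids of the WIBR3 line, which are human embryonic stem cells, and the wild-type carried both copies of LIS1 (LIS1+/+). The other 12 libraries were wild-type stem cells and the LIS1+/- counterparts of all 3 stages, again 3 libraries per group. LIS1+/- cells are heterozygous for LIS1 (gene symbol PAFAH1B1), a regulator of the motor protein dynein. Libraries were made with bulk MARS-seq, in which each count is a tag from the 3' part of a transcript.

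All organoids came from 1 cell line. Whether libraries of 1 group came from separate cultures, how many organoids a library holds and how many clones were used is not stated in the labels. The p-values therefore measure the spread between libraries only. That spread was estimated over all 18 libraries of the series, not from the wild-type organoids alone. Each stage has its own pool number in the names of the files, and stage and pool cannot be told apart. The gene rows of the 3 Day 5 libraries summed to between 4216835 and 4501489 counts and those of the 3 Day 12 libraries to between 1425098 and 1962218. Levels are given as CPM, a gene's share of the counts on scaled library sizes, always in the order library 1, 2 and 3, and compared only within a gene.

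During neural induction pluripotent cells become a neuroepithelium, a sheet of dividing progenitors that later turn into radial glia and produce neurons. Proneural transcription factors commit single progenitors to neuronal fate, and NOTCH signals hold the neighbours back. Which region a neuroepithelium forms (telencephalon, eye, hindbrain, roof plate) depends on WNT, BMP, FGF and retinoic acid signals, and cells at its border can become neural crest, a migratory population that gives rise to mesenchyme.

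A gene was called when its Benjamini-Hochberg adjusted p from the quasi-likelihood test of edgeR was under 0.05, and "rose" and "fell" are used of called genes only, toward Day 12. Of 12215 tested genes 2990 were called (24.5%), of which 1556 rose (12.7%) and 1434 fell (11.7%). Of those that rose 1043 did so at least 2-fold (8.54% of tested genes), against 603 of those that fell (4.94%). At an unadjusted p under 0.05 there were 4515 genes. The libraries of the 2 days did not overlap in 4910 tested genes (40.2%): all Day 12 libraries lay above all Day 5 libraries in 2433 (19.9%) and below them in 2477 (20.3%). Genes named below were picked in part for such a gap or for a small p, so a gap reported for them is a description only. The median log2 fold change over all tested genes was 0.02. In bulk RNA, fewer cells of a type and less RNA per cell cannot be told apart, and this holds for every change below.

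The 39 lists of genes with a shared role held 916 distinct tested genes, of which 262 rose and 135 fell. Shares of members that rose were highest for genes induced by hypoxia (22 of 27 tested), proneural genes (14 of 19) and motile cilium genes (8 of 12), and shares that fell were highest for pluripotency genes (16 of 25) and DNA replication genes (21 of 40). A low-count gene reached the test only when it was expressed in some group, so lists of genes silent at Day 5 hold mainly tested members that could rise. Their counts are descriptions. When any 1 library was left out, counts of 1 to 3 members changed by at most 3 members.

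**Figure D1:**
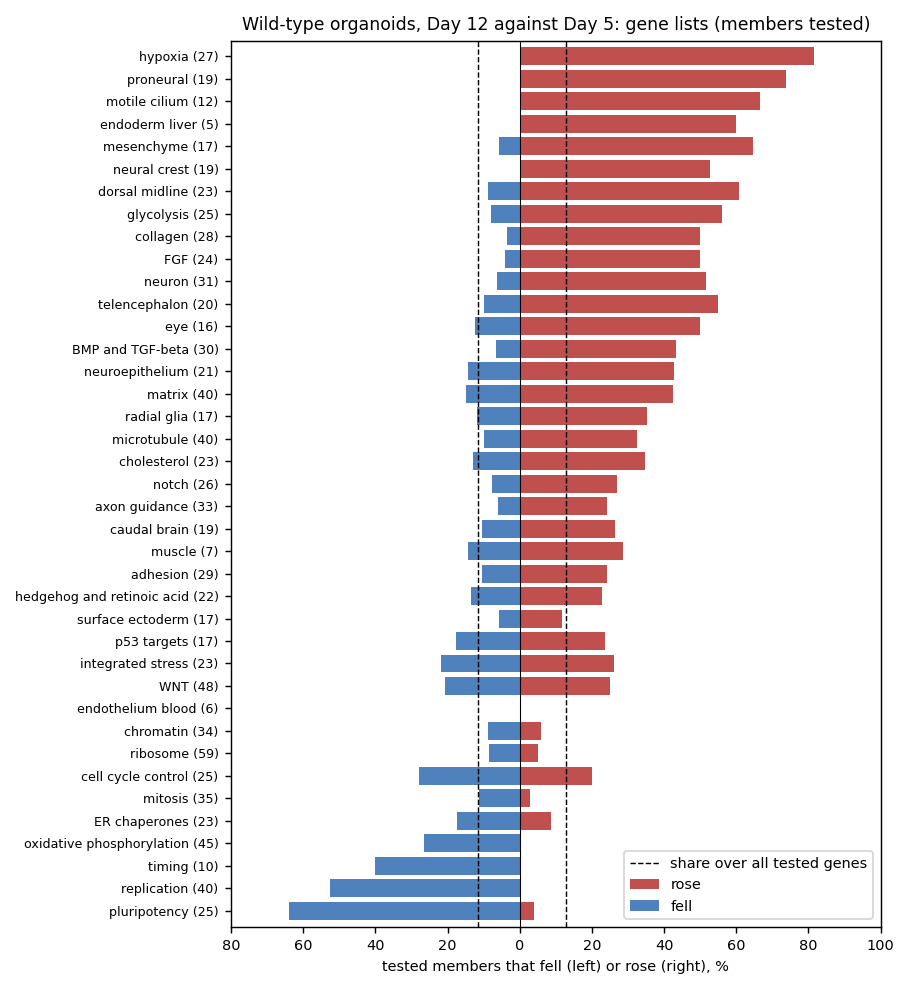
Share of the tested members of each of 39 gene lists that rose (red, right) or fell (blue, left) in wild-type organoids from Day 5 to Day 12, in percent, with the number of tested members in brackets. The dashed lines mark the shares over all 12215 tested genes, 12.7% rising and 11.7% falling. Hypoxia and proneural genes extend furthest to the right, and pluripotency and replication genes furthest to the left.

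Most genes of the pluripotent state fell, as did part of the genes of early developmental timing. Of 25 tested pluripotency genes 16 fell and 1 rose, with a median log2 fold change of -2.37, or -2.15 with members lacking counts set at their bound. LIN28A, an RNA-binding protein that blocks maturation of the let-7 microRNAs, stood at 673, 648 and 580.5 CPM at Day 5 and 110.5, 54.1 and 81.3 CPM at Day 12. Its log2 fold change was -2.95 ± 0.23 (adjusted p = 3.56e-09), and every Day 12 library lay below every Day 5 library. TRIM71, a let-7 target that keeps cells immature, had 192, 171.04 and 128 CPM at Day 5 and 23.3, 19.5 and 32.6 CPM at Day 12 (log2 fold change -2.68 ± 0.34, adjusted p = 8.93e-06). The stem cell libraries had 900.0, 886 and 775 CPM of LIN28A and 55.7, 118 and 73.9 CPM of TRIM71, so the Day 5 values lay below the stem cell values for LIN28A and above them for TRIM71, and both genes were lowest at Day 12.

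DNMT3B, a de novo DNA methyltransferase of early embryonic cells, had 203, 199 and 177 CPM at Day 5 and 34.9, 53.5 and 56 CPM at Day 12, with a log2 fold change of -1.99 ± 0.16 (adjusted p = 2.68e-09). NR6A1, a nuclear receptor that represses pluripotency genes and is active in the early embryo, fell from 885, 1105 and 899 CPM to 219.7, 181 and 220.5 CPM (log2 fold change -2.22 ± 0.15, adjusted p = 1.11e-10). POU3F1, a factor of primed pluripotency and early neural fate, fell by a log2 fold change of -2.41 ± 0.30, with 91.2, 110.4 and 75.5 CPM at Day 5 and 18.1, 11.3 and 21.9 CPM at Day 12. SALL4, a zinc finger factor of stem cells, fell too (122, 118 and 93.6 CPM at Day 5 and 23.3, 26.4 and 44.8 CPM at Day 12, log2 fold change -1.80 ± 0.23). The pooled counts of POU5F1 (OCT4) were 446 at Day 5 and 3 at Day 12, a ratio of 59.3 (95% counting interval 20.2 to 289) between the days.

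Other members of both lists did not follow. DPPA4, a chromatin protein of pluripotent cells, had 106, 118 and 112 CPM at Day 5 and 104, 92.5 and 66.2 CPM at Day 12. It gave no call (adjusted p = 0.158), though every Day 12 library lay below every Day 5 library. TFAP2C was the pluripotency list's member that rose, from 7.24, 5.18 and 6.09 CPM to 20.7, 25.8 and 25.8 CPM (log2 fold change 1.96 ± 0.36), and it also marks surface ectoderm and germ cells. Among 10 tested timing genes 4 fell and none rose. HMGA2, LIN28B and IGF2BP1, which like LIN28A are high in young neural progenitors, gave no call, with log2 fold changes of 0.11 ± 0.20, -0.43 ± 0.30 and -0.32 ± 0.15. The count of 4 for the timing list was 2 without Day 5 library 1, Day 5 library 2, Day 12 library 1 or Day 12 library 2.

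Markers of the neuroepithelium did not share a direction: of 21 tested members 9 rose and 3 fell. SOX3, a SOXB1 factor of neural progenitors, rose from 532, 476 and 557 CPM to 925, 1923 and 2057 CPM (log2 fold change 1.65 ± 0.20, adjusted p = 1.51e-06). SOX2, its close relative that stem cells share, fell: it had 682, 700.2 and 668 CPM at Day 5 and 314, 562 and 416 CPM at Day 12, a log2 fold change of -0.67 ± 0.17. SOX1, which had no count in the stem cells, rose, with 6.75, 8.56 and 7.44 CPM at Day 5 and 12.9, 42.8 and 33.6 CPM at Day 12 (log2 fold change 1.97 ± 0.40). The 3 SOXB1 factors thus split, and in none of them did the libraries of the 2 days overlap. NES (nestin), the intermediate filament protein of neural progenitors, fell from 1496, 1381 and 843 CPM to 483, 435 and 577 CPM (log2 fold change -1.31 ± 0.19). VIM (vimentin), the other progenitor filament protein, rose, from 2550.0, 2065 and 2809.6 CPM to 5314, 6671 and 5266 CPM (log2 fold change 1.22 ± 0.14, adjusted p = 5.96e-07). The stem cells had 5047, 4964 and 4857 CPM of VIM, so Day 5 held the lowest VIM level of the 3 stages.

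PAX6, a marker of human neuroepithelium, stood at 13.5, 16 and 14.4 CPM at Day 5 and 12.3, 14.5 and 17.5 CPM at Day 12 and gave no call (log2 fold change 0.02 ± 0.31). The ZIC family of zinc finger factors split as well. ZIC4 rose, with 1.93, 0 and 1.80 CPM at Day 5 and 51.7, 46.6 and 37 CPM at Day 12 (log2 fold change 5.14 ± 0.60). ZIC1 rose from 2.65, 0.901 and 1.58 CPM to 13.6, 37.1 and 14.6 CPM; the log2 fold change was 3.02 without Day 12 library 2, against 3.63 ± 0.50 in the full set. ZIC2 gave no call in the wild-type (log2 fold change -0.15 ± 0.13), with 394, 430.4 and 426 CPM at Day 5 and 399, 364 and 367 CPM at Day 12. DLK1, a secreted and membrane-bound NOTCH ligand relative, fell from 2843, 3769.6 and 2178 CPM to 696, 1228 and 1580.2 CPM (log2 fold change -1.33 ± 0.22) and stem cells had 66.7, 64.8 and 66.4 CPM. CRABP1, a retinoic acid binding protein, rose (log2 fold change 1.12 ± 0.16).

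Radial glia markers showed a partial change. Of 17 tested members 6 rose and 2 fell, and without Day 5 library 2 the number that rose was 3. HES1, a NOTCH target that keeps progenitors dividing, had 160.4, 137 and 205 CPM at Day 5 and 308, 343 and 389.8 CPM at Day 12 (log2 fold change 1.05 ± 0.16, adjusted p = 4.10e-05). TNC (tenascin C), a matrix protein of mature radial glia, fell from 38.1, 41.9 and 37.7 CPM to 18.1, 6.92 and 13.1 CPM. FABP7, a fatty acid binding protein of radial glia, gave no call at 12.5, 16.7 and 10.1 CPM at Day 5 and 7.11, 15.7 and 20.4 CPM at Day 12. HES5, another NOTCH target, had 1324, 992 and 651 CPM at Day 5 and 582, 384 and 1723 CPM at Day 12, a wide spread at Day 12, and gave no call (log2 fold change -0.14 ± 0.47).

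Proneural genes were the list with the largest share of rising members after the hypoxia genes. Of 19 tested proneural genes 14 rose and none fell (median log2 fold change 1.60), beside 12.7% of all tested genes that rose. With any 1 library left out between 10 and 15 rose, with the lowest count without Day 12 library 1 (median log2 fold change 1.38). NEUROG2, a proneural factor of the cortex, had 3.14, 1.35 and 1.58 CPM at Day 5 and 6.46, 20.8 and 27.3 CPM at Day 12 (log2 fold change 3.16 ± 0.62, adjusted p = 5.07e-04). INSM1, a zinc finger factor of basal progenitors and endocrine cells, had 2.17, 2.70 and 2.03 CPM at Day 5 and 139.6, 26.4 and 75.9 CPM at Day 12, and the log2 fold change was 4.46 without Day 12 library 1 against 5.10 ± 0.53 in the full set. The stem cells had also expressed INSM1, at 53.8, 66.8 and 67.7 CPM, so its Day 5 level was the lowest of the 3 stages. NHLH1, a factor of newly born neurons, rose from 10.6, 3.38 and 7.89 CPM to 71.7, 15.7 and 71.1 CPM (log2 fold change 2.86 ± 0.50).

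The NOTCH ligands parted. DLL3, an intracellular antagonist among the NOTCH ligands, rose, with 17.6, 14 and 16.9 CPM at Day 5 and 60.1, 30.2 and 53.5 CPM at Day 12 (log2 fold change 1.57 ± 0.30). DLL1, the activating ligand, gave no call at 123, 130.0 and 157 CPM at Day 5 and 101, 149 and 188 CPM at Day 12. MFNG, a sugar transferase that modifies NOTCH receptors, had 4.82, 7.21 and 6.09 CPM at Day 5 and 45.9, 9.44 and 34.1 CPM at Day 12 and rose (log2 fold change 2.29 ± 0.50). NOTCH3, a receptor, fell from 166, 152 and 166 CPM to 84.6, 54.1 and 73.5 CPM (log2 fold change -1.19 ± 0.22). Of 26 tested genes of the NOTCH pathway 7 rose and 2 fell, the latter 4 without Day 12 library 3. EOMES, the factor of cortical intermediate progenitors, stayed low, with 2.41, 5.63 and 9.70 CPM at Day 5 and 2.58, 3.15 and 7.79 CPM at Day 12 and no call.

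**Figure D2:**
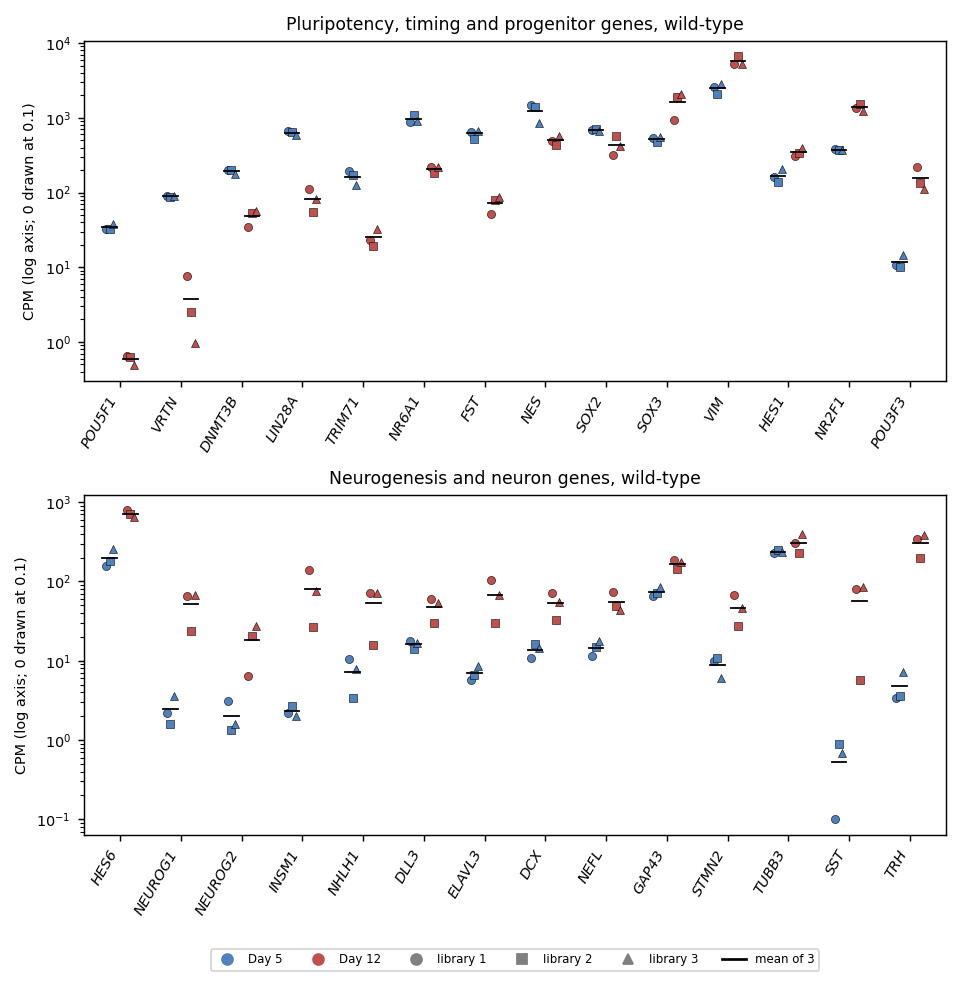
CPM of wild-type libraries on a log axis for pluripotency, timing and progenitor genes (top) and neurogenesis and neuron genes (bottom), with Day 5 in blue, Day 12 in red, 1 symbol per library and a line at the mean of 3 libraries. POU5F1, LIN28A and NES lie lower at Day 12, and in the lower panel the libraries of the 2 days overlap for TUBB3 alone.

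Of 31 tested genes of postmitotic neurons 16 rose and 2 fell (median log2 fold change 1.05). With any 1 library left out between 11 and 19 rose, with the lowest count without Day 12 library 1 (median log2 fold change 0.84). DCX (doublecortin), a microtubule protein of migrating neurons, had 10.9, 16.2 and 14.4 CPM at Day 5 and 70.4, 32.7 and 55 CPM at Day 12 (log2 fold change 1.92 ± 0.28, adjusted p = 1.44e-05). NEFL, a neurofilament subunit, had 11.3, 14.9 and 17.6 CPM at Day 5 and 73, 49.1 and 43.3 CPM at Day 12 (log2 fold change 1.91 ± 0.28), and STMN2, a tubulin-binding protein of growing axons, had 9.89, 10.8 and 6.09 CPM at Day 5 and 67.8, 27.1 and 45.7 CPM at Day 12 (log2 fold change 2.39 ± 0.46). In each of these 3 genes all Day 12 libraries lay above all Day 5 libraries, and Day 12 library 2 was lowest for DCX and STMN2. GAP43, a growth cone protein, rose from 65.1, 70.8 and 85.7 CPM to 185, 142 and 174 CPM (log2 fold change 1.18 ± 0.19).

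TUBB3, the neuronal tubulin, gave no call at 229.9, 249 and 233 CPM at Day 5 and 304, 229.6 and 393 CPM at Day 12, and it was higher in stem cells (509, 504.3 and 387 CPM). UCHL1, an abundant neuronal ubiquitin hydrolase that these stem cells also carried at 2956, 2530.2 and 3155 CPM, fell from 1357, 1551 and 1347 CPM to 691, 993 and 625 CPM (log2 fold change -0.88 ± 0.17). TBR1, a factor of deep-layer cortical neurons, had no count in the 6 libraries, and SLC17A6, the vesicular glutamate transporter, had no Day 5 count and 7.11, 1.26 and 1.46 CPM at Day 12, too few for the test. TRH, a peptide hormone of the hypothalamus also made by early neurons, was among the 15 largest rises, with 3.38, 3.61 and 7.22 CPM at Day 5 and 344, 200.1 and 381 CPM at Day 12 (log2 fold change 6.01 ± 0.43, adjusted p = 2.67e-08).

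Microtubule genes rose more often than they fell. Of 40 tested members of a list of tubulins, microtubule-associated proteins and LIS1 partners 13 rose and 4 fell, the latter 2 without Day 12 library 2. TUBA1A, the main alpha tubulin of developing neurons, rose from 4153, 3216 and 3729 CPM to 6128, 8577 and 7659.9 CPM (log2 fold change 1.01 ± 0.17). MAP6 and DCLK2, which stabilise microtubules, rose by log2 fold changes of 2.24 ± 0.23 and 2.01 ± 0.33. MAP1A, a protein of mature dendrites, fell (69.5, 91.7 and 85.2 CPM at Day 5 and 24.6, 22.6 and 37.5 CPM at Day 12, log2 fold change -1.52 ± 0.28). PAFAH1B1 itself was at 129.8, 134 and 152 CPM at Day 5 and 147, 218 and 139.7 CPM at Day 12 and gave no call (log2 fold change 0.28 ± 0.19, adjusted p = 0.300).

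Genes of the forebrain rose in the main. Of 20 tested transcription factors of the telencephalon 11 rose and 2 fell (median log2 fold change 0.98). NR2F1 (COUP-TFI), which patterns the caudal cortex, had 379, 374 and 372 CPM at Day 5 and 1354, 1536 and 1229 CPM at Day 12, with a narrow spread at both days (log2 fold change 1.87 ± 0.17, adjusted p = 2.33e-08). DMRT3 and FEZF2, factors of cortical progenitors, rose by log2 fold changes of 2.72 ± 0.30 and 1.39 ± 0.26. FEZF2 had 138, 125 and 157 CPM at Day 5 and 232, 322 and 543 CPM at Day 12. POU3F3, an upper layer and progenitor factor, rose from 10.9, 10.1 and 14.7 CPM to 218, 132 and 113 CPM (log2 fold change 3.69 ± 0.27, adjusted p = 3.23e-10).

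OTX1, an anterior brain factor, fell, from 489, 451 and 502 CPM to 240.4, 213 and 281 CPM (log2 fold change -0.97 ± 0.18), while its relative OTX2 gave no call (274, 261 and 311 CPM at Day 5 and 216, 409 and 271 CPM at Day 12). SIX3, a factor of the anterior neural plate, rose (log2 fold change 0.82 ± 0.20), with 133, 141 and 126 CPM at Day 5 and 128, 304 and 272 CPM at Day 12. The days overlapped, since Day 12 library 1 lay within the Day 5 range. LHX2, a factor of cortex and eye, also overlapped, with 95.5, 107 and 90.4 CPM at Day 5 and 86.6, 286 and 226 CPM at Day 12; its log2 fold change was 1.03 ± 0.28, and the call was lost without Day 12 library 2 (adjusted p = 0.0758). EMX2, a factor of the dorsal telencephalon, had 157, 121 and 173 CPM at Day 5 and 191, 234 and 384 CPM at Day 12. It rose (log2 fold change 0.85 ± 0.24), but the call was lost without Day 5 library 2 (adjusted p = 0.0732) and without Day 12 library 3 (adjusted p = 0.109). The ventral marker NKX2-1 had no count in the 6 libraries. DLX2, a factor of ventral forebrain interneurons and of neural crest, did have counts at Day 12, as given at the end. NKX2-1 therefore does not show that ventral cells were absent.

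Genes of the eye field and retina divided. Of 16 tested members 8 rose and 2 fell, and 5 rose without Day 12 library 2. MAB21L1, needed for lens and retina, rose with 3.62, 0.901 and 2.93 CPM at Day 5 and 36.2, 67.3 and 15.1 CPM at Day 12 (adjusted p = 5.62e-06); the log2 fold change was 3.33 without Day 12 library 2, against 3.96 ± 0.51 in the full set. VAX2, a factor of the ventral retina, had 5.31, 6.08 and 7.67 CPM at Day 5 and 8.40, 45.3 and 21.4 CPM at Day 12 (log2 fold change 1.97 ± 0.45), and the log2 fold change was 1.25 without Day 12 library 2. Day 12 library 2 was highest in both genes.

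RAX and SIX6, factors of the eye field itself, gave no call: RAX had 50.2, 73 and 40.8 CPM at Day 5 and 5.17, 45.3 and 16.1 CPM at Day 12 (log2 fold change -1.31 ± 0.56). SIX6 had 16.6, 22.3 and 16 CPM at Day 5 and 6.46, 75.5 and 19 CPM at Day 12 (log2 fold change 0.86 ± 0.55). PMEL, a pigment granule protein, fell from 404, 374 and 336 CPM to 176, 81.8 and 146 CPM (log2 fold change -1.46 ± 0.23). PAX2, a factor of the optic stalk and of the midbrain border, fell with 52.3, 41 and 44.4 CPM at Day 5 and 9.69, 5.03 and 11.2 CPM at Day 12 (log2 fold change -2.38 ± 0.46). RPE65, an enzyme of mature pigment epithelium, had no count in the 6 libraries.

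Genes of caudal brain regions had no shared direction. Of 19 tested members 5 rose and 2 fell. Without Day 12 library 1 the counts were 1 and 4, and 3 rose without Day 5 library 2. EN2, a midbrain and cerebellar factor, rose with 0.482, 0.451 and 0 CPM at Day 5 and 25.2, 5.66 and 7.79 CPM at Day 12; the log2 fold change was 4.27 without Day 12 library 1, against 5.17 ± 0.75 in the full set. IRX2, a factor of diencephalon and hindbrain, fell from 221, 248 and 254 CPM to 187, 61.7 and 105 CPM (log2 fold change -1.04 ± 0.24). HOXB2, a hindbrain factor, was not tested, with 0.482, 0.676 and 0.902 CPM at Day 5 and 43.9, 0 and 8.27 CPM at Day 12.

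Most tested genes of the dorsal midline rose, including secreted WNT agonists and BMPs. Of 23 tested genes of roof plate, cortical hem and choroid plexus 14 rose and 2 fell (median log2 fold change 1.53), and 9 rose without Day 5 library 2. RSPO2, an R-spondin that strengthens WNT signals, had 18.1, 19.4 and 36.8 CPM at Day 5 and 141, 264 and 171.31 CPM at Day 12 (log2 fold change 2.95 ± 0.39, adjusted p = 2.92e-05). BMP7, a dorsal signal, had 23.2, 39.4 and 29.99 CPM at Day 5 and 97.6, 107 and 86.1 CPM at Day 12 (log2 fold change 1.65 ± 0.25). LMX1A, the roof plate factor, had 12.1, 8.11 and 11.5 CPM at Day 5 and 37.5, 28.9 and 47.7 CPM at Day 12 (log2 fold change 1.85 ± 0.36). In all 3 genes the libraries of the 2 days did not overlap. CLIC6, an ion channel protein of the choroid plexus, was low but higher at Day 12, with 0, 0.676 and 0.902 CPM at Day 5 and 4.52, 6.92 and 6.81 CPM at Day 12, while the choroid plexus channels KCNJ13 and HTR2C were too low for the test.

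Motile cilia beat on choroid plexus and ependyma, and most of their tested genes rose from low levels. Of 25 listed genes only 12 were tested, and the others failed the filter on low counts. Among the 12 tested members 8 rose and none fell, and with any 1 library left out between 6 and 9 rose. FOXJ1, the master factor of motile cilia, had 12.8, 13.5 and 6.31 CPM at Day 5 and 49.1, 39 and 63.3 CPM at Day 12 (log2 fold change 2.22 ± 0.30, adjusted p = 6.03e-06). RFX2, which acts with FOXJ1 on cilium genes, had 15.7, 12.2 and 16.9 CPM at Day 5 and 33.6, 25.2 and 69.1 CPM at Day 12 (log2 fold change 1.53 ± 0.33). CFAP126, a cilium protein, had no Day 5 count and 2.58, 5.66 and 4.38 CPM at Day 12, at least 18.3-fold above a floor of 3 counts over the Day 5 group.

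Markers of neural crest and mesenchyme rose in part, and their highest values were in Day 12 library 1. Of 19 tested neural crest genes 10 rose and none fell, but 5 rose without Day 12 library 1, 4 without Day 5 library 2 and 6 without Day 5 library 1. TWIST1, a factor of cranial mesenchyme, had 2.17, 1.80 and 3.16 CPM at Day 5 and 199.7, 17 and 68.1 CPM at Day 12; the log2 fold change was 4.16 without Day 12 library 1, against 5.28 ± 0.65 in the full set. SOX10, a crest and glial factor, had 8.44, 10.1 and 10.8 CPM at Day 5 and 87.9, 5.66 and 36 CPM at Day 12, so that Day 12 library 2 lay below all 3 Day 5 libraries. Its log2 fold change was 2.13 ± 0.63, and the call was lost without Day 5 library 1 (adjusted p = 0.0693), Day 5 library 2 (adjusted p = 0.0633) and Day 12 library 1 (adjusted p = 0.193). TFAP2A, an early crest factor, had 3.62, 4.51 and 10.1 CPM at Day 5 and 91.7, 15.1 and 35.5 CPM at Day 12; the log2 fold change was 2.05 without Day 12 library 1, against 2.94 ± 0.60 in the full set.

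Of 17 tested mesenchyme genes 11 rose and 1 fell (median log2 fold change 2.36), and with all libraries thinned to the depth of the smallest 6 of 12 tested rose (median 1.41). PDGFRB, a receptor of mesenchyme and pericytes, had 3.62, 6.99 and 4.28 CPM at Day 5 and 26.5, 11.3 and 19.5 CPM at Day 12 (log2 fold change 1.93 ± 0.40), and COL1A1, a fibrillar collagen, had 2.89, 5.63 and 4.28 CPM at Day 5 and 74.3, 16.4 and 45.3 CPM at Day 12 (log2 fold change 3.38 ± 0.39). THY1, the mesenchyme list's member that fell, is a surface protein shared with stem cells and neurons (291, 288 and 252 CPM at Day 5 and 119, 59.8 and 102 CPM at Day 12). PDGFRA, a defining receptor of mesenchyme, was not tested, at 0.482, 0.451 and 1.80 CPM at Day 5 and 15.5, 3.15 and 2.92 CPM at Day 12. Of 5 tested liver and yolk sac genes 3 rose. Without Day 5 library 3 it was 5 of 8 tested, and without Day 12 library 2 6 of 9, since the filter then let in more members. The count was 2 of 6 without Day 12 library 3 and 2 of 4 with the compared libraries alone. With DESeq2, thinned counts or the GC trend removed it was 2 of 5. A member that rose, also in the dorsal midline list, lost its call without Day 5 library 1, 2 or 3 or Day 12 library 3 (adjusted p 0.064 to 0.0904). APOA1, an apolipoprotein, had 2.65, 0.676 and 3.16 CPM at Day 5 and 193, 13.8 and 40.9 CPM at Day 12, and the log2 fold change was 3.65 without Day 12 library 1, against 5.22 ± 0.84 in the full set. The liver marker ALB stayed at or under 0.68 CPM in every library. Defining markers of muscle (MYOG), blood (PTPRC), endothelium (PECAM1) and stratified surface ectoderm (KRT5 and TP63) had no count in the 6 libraries. They were chosen after their values were seen. Of the listed genes, 3 of 19 for muscle, 4 of 21 for endothelium and blood and 3 of 26 for surface ectoderm had no count. The other members had counts, so these markers do not show that the cell types were absent. A count of 0 over the 3 Day 12 libraries allows up to 0.578 CPM, from counting error alone.

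The order of the 3 Day 12 libraries differed between lists, regional and other. Over all tested genes Day 12 library 1 was the highest of the 3 for 33.9%, library 2 for 35.5% and library 3 for 30.6%. For tested caudal brain genes library 1 was highest in 17 of 19, for mesenchyme in 16 of 17, for neural crest in 16 of 19 and for surface ectoderm in 13 of 17. For neuroepithelium genes library 2 was highest in 13 of 21, and for telencephalon genes library 1 was lowest in 14 of 20. Lists without a region also had an order. Library 1 was highest in 13 of 19 proneural, 19 of 31 neuron, 17 of 25 glycolysis, 15 of 23 integrated stress and 15 of 25 pluripotency genes. Library 2 was highest in 21 of 35 mitosis genes. IRX3, a factor of diencephalon and more caudal regions, stood at 240.4, 42.1 and 62.3 CPM in the 3 Day 12 libraries. WNT3A, a WNT of the cortical hem and roof plate, had 167, 37.1 and 68.1 CPM there, again highest in library 1. Neither IRX3 nor WNT3A was called (log2 fold changes 0.36 ± 0.47 and 0.76 ± 0.52). The summed level of the 22 listed neural crest genes was 942, 285 and 492 CPM at Day 12 against 227 to 269.9 CPM at Day 5, and that of 25 liver and yolk sac genes 688, 37.8 and 108 CPM against 12.2 to 25.9 CPM. In both sums Day 12 library 2 lay near the Day 5 range and library 1 far above it. Day 12 library 2 also stood apart in the trend of its counts with GC content, and the part of either difference in the results was not tested.

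The Day 12 libraries were less alike than the Day 5 ones. Pairwise correlations of log2 CPM across genes lay between 0.976 and 0.977 at Day 5, between 0.917 and 0.946 at Day 12 and between 0.873 and 0.922 across the days. The median coefficient of variation over tested genes was 15.6% at Day 5 and 26.5% at Day 12. The Day 12 libraries were also the shallower ones.

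**Figure D3:**
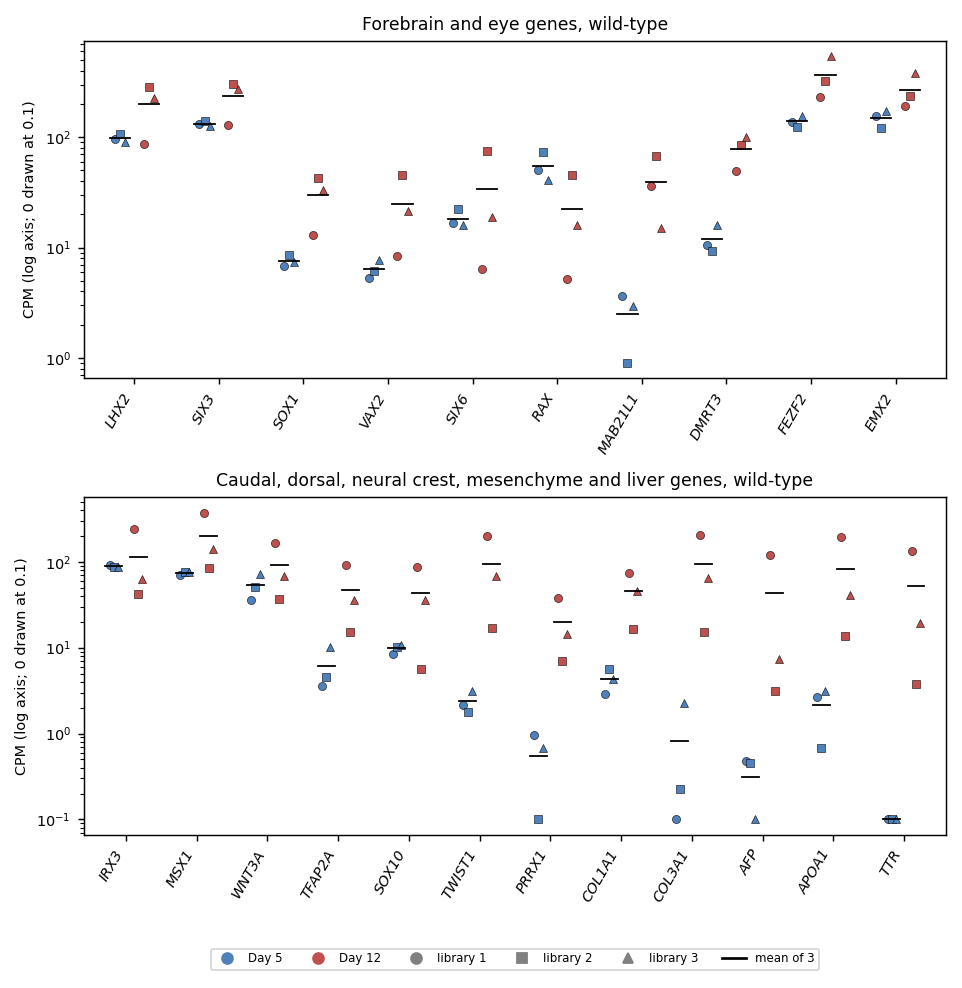
CPM of wild-type libraries on a log axis for forebrain and eye genes (top) and caudal, dorsal, neural crest, mesenchyme and liver genes (bottom), with Day 5 in blue, Day 12 in red, 1 symbol per library and a line at the mean; values of 0 are drawn at 0.1. At Day 12, library 1 (circles) is lowest for LHX2, SIX3, VAX2 and DMRT3 and highest for every gene of the lower panel.

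Genes induced by low oxygen rose in the largest share of all lists. Of 27 tested hypoxia genes outside glycolysis 22 rose and none fell (median log2 fold change 1.92, against 0.02 over all tested genes), and with any 1 library left out between 20 and 21 rose. DDIT4, an inhibitor of mTOR signalling, had 107, 94.2 and 118 CPM at Day 5 and 834, 581 and 757 CPM at Day 12 (log2 fold change 2.77 ± 0.20, adjusted p = 3.23e-10). BNIP3, which drives removal of mitochondria, had 97.9, 82.5 and 127 CPM at Day 5 and 829.6, 700.2 and 611 CPM at Day 12 (log2 fold change 2.80 ± 0.20, adjusted p = 3.23e-10). P4HA2, a collagen prolyl hydroxylase, had 3.62, 3.61 and 5.41 CPM at Day 5 and 57.5, 30.2 and 34.1 CPM at Day 12 (log2 fold change 3.25 ± 0.39). EGLN1 (PHD2), the oxygen sensor that is itself a target of the hypoxia-inducible factor (HIF), had 8.92, 5.63 and 11.7 CPM at Day 5 and 52.3, 32.7 and 38.4 CPM at Day 12 (log2 fold change 2.22 ± 0.30). No library of 1 day reached the range of the other day in these 4 genes.

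HIF binds the core motif ACGTG. Promoters of 2 rising hypoxia genes that hold this motif are shown because most of the list rose. The 2 genes were picked by small p from part of the list. They need not have the smallest p of all rising members with the motif. The sequences are the 250 bases before the gene start in RefSeq (GRCh38.p14), 5' to 3' on the gene's strand in lower case, with the motif in capitals on either strand. DDIT4 lies at chr10:72273674-72273923, plus strand, and BNIP3 at chr10:131981924-131982173, minus strand.
DDIT4: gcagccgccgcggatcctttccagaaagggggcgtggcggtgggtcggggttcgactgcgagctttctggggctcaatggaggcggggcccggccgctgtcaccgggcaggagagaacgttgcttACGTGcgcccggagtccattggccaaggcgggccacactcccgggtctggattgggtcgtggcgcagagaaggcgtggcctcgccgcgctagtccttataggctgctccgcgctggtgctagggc
BNIP3: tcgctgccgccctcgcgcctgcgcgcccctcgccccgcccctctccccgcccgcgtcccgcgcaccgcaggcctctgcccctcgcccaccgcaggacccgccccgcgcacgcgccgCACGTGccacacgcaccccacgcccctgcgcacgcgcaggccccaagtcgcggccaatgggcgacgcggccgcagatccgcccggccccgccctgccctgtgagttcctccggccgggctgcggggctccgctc
In BNIP3 the 2 matches, 1 on each strand, overlap in a single palindrome. Of the 21 tested hypoxia genes with a promoter in the RefSeq table, 12 held ACGTG on either strand in these 250 bases (57.1%), beside 23.7% of the 9189 tested genes matched to a promoter. Of 18 that rose 11 held it. For glycolysis genes the count was 8 of 23 (34.8%). A match describes the letters of this window and shows no binding.

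Glycolysis genes also rose more often than they fell. Of 25 tested members 14 rose and 2 fell (median log2 fold change 0.82). SLC16A3 (MCT4), which exports lactate, had 17.6, 12.8 and 23.2 CPM at Day 5 and 439, 223 and 381 CPM at Day 12 (log2 fold change 4.28 ± 0.36, adjusted p = 1.23e-07). SLC16A1 (MCT1), a lactate transporter found in most cells, fell instead, with 255, 231 and 279 CPM at Day 5 and 138, 211 and 141 CPM at Day 12; the call was lost without Day 5 library 3 (adjusted p = 0.0508), Day 12 library 1 (adjusted p = 0.0650) and Day 12 library 3 (adjusted p = 0.0574). PGK1 and HK2, a glycolytic kinase and a hexokinase, rose by log2 fold changes of 1.69 ± 0.19 and 1.66 ± 0.29. PDK1, which keeps pyruvate out of the mitochondrion, had 5.07, 3.83 and 11.3 CPM at Day 5 and 38.8, 29.6 and 32.1 CPM at Day 12, and the log2 fold change was 2.89 without Day 5 library 3 against 2.30 ± 0.34 in the full set. The lactate dehydrogenase subunits parted: LDHA had 94.3, 82.9 and 85 CPM at Day 5 and 330.2, 113 and 185 CPM at Day 12 and rose (log2 fold change 1.26 ± 0.26), while LDHB had 558, 680.1 and 599 CPM at Day 5 and 400.0, 354 and 367 CPM at Day 12 and fell (log2 fold change -0.71 ± 0.15).

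Part of the nuclear genes of the respiratory chain fell by small amounts. Of 45 tested members none rose and 12 fell, but 5 without Day 5 library 2 and 7 without Day 12 library 2 (median log2 fold change -0.28). COX7A2, a subunit of cytochrome c oxidase, had 70.7, 82.5 and 61.8 CPM at Day 5 and 38.8, 27.1 and 30.2 CPM at Day 12 (log2 fold change -1.17 ± 0.25), and COX5B, another, had 915, 852 and 798 CPM at Day 5 and 587, 437 and 571 CPM at Day 12 (log2 fold change -0.69 ± 0.16). TRIB3 and DDIT3 (CHOP), targets of the integrated stress response, rose with log2 fold changes of 2.56 ± 0.28 and 1.89 ± 0.23. TRIB3 was at 6.75, 9.92 and 9.02 CPM at Day 5 and 53.6, 47.2 and 51.6 CPM at Day 12, after 62.9, 54.8 and 83.8 CPM in stem cells. SLC3A2, an amino acid transporter chain of the same response, fell (log2 fold change -0.72 ± 0.14), and of 23 tested genes of this response 6 rose and 5 fell, the latter 1 without Day 5 library 2 or without Day 12 library 2.

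Of 40 tested genes of replication licensing, forks and nucleotide supply 21 fell and none rose (median log2 fold change -0.57), beside 11.7% of all tested genes that fell. CDC6, which loads the replicative helicase, had 52.1, 63.5 and 57.1 CPM at Day 5 and 18.7, 25.8 and 25.3 CPM at Day 12 (log2 fold change -1.30 ± 0.20, adjusted p = 2.77e-05). CDT1, its partner in loading, had 405, 459 and 412 CPM at Day 5 and 182, 126 and 242 CPM at Day 12 (log2 fold change -1.21 ± 0.23). POLE, the leading strand polymerase, had 132, 135 and 135 CPM at Day 5 and 52.3, 44 and 52.6 CPM at Day 12 (log2 fold change -1.43 ± 0.27), and CHAF1A, a chromatin assembly factor, had 256, 256 and 234 CPM at Day 5 and 112, 101 and 142 CPM at Day 12 (log2 fold change -1.07 ± 0.20). The libraries of the 2 days did not overlap in these 4 genes.

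Of 35 tested mitosis genes 4 fell and 1 rose (median log2 fold change -0.19), and 1 fell without Day 5 library 1 and 2 without Day 12 library 1. The called members made up 14.3% of the list, beside 24.5% of all tested genes, of which 11.7% fell and 12.7% rose. The share that fell was thus near that of all tested genes. BIRC5 (survivin), a mitotic spindle protein, fell from 452, 402 and 377 CPM to 268, 251 and 248 CPM (log2 fold change -0.68 ± 0.15). MKI67, the proliferation marker, had 69.7, 65.1 and 71 CPM at Day 5 and 42.6, 50.3 and 79.3 CPM at Day 12 and gave no call (log2 fold change -0.25 ± 0.23). The difference between the 2 lists was not tested.

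The E2F factors that switch on replication genes bind TTCCCGC. Promoters of 2 falling replication genes that hold it are given in the same form. These genes too were picked by small p from part of their list. CHAF1A lies at chr19:4402390-4402639, plus strand, and CDT1 at chr16:88803539-88803788, plus strand.
CHAF1A: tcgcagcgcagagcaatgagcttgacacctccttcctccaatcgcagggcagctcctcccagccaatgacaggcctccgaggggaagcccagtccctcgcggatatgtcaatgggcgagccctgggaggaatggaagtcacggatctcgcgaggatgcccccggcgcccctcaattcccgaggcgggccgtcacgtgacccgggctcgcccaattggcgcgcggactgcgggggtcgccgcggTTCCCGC
CDT1: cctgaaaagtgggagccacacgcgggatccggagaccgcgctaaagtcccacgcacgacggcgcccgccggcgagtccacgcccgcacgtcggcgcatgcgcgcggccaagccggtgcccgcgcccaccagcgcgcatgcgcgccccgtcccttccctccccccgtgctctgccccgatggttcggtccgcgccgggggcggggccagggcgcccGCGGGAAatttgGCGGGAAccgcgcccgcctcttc
Of 35 tested replication genes with a promoter 14 held TTCCCGC on either strand in 250 bases (40.0%), against 9.28% of the 9189 tested genes. Among the 17 of them that fell 6 held it. In the mitosis list 17 of 29 promoters held TTTGAA, the cell cycle homology region (58.6%, against 7.65%). In the proneural list 5 of 13 held the E-box CAGCTG (38.5%, against 12.3%) and 2 held CAGATG (15.4%, against 7.59%).

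Cell cycle control genes moved in both directions. CCND2 (cyclin D2), the G1 cyclin of cortical progenitors, rose from 92.6, 87.7 and 81.9 CPM to 508, 331 and 324 CPM (log2 fold change 2.15 ± 0.18, adjusted p = 5.21e-09). The CDK inhibitors CDKN1C (p57) and CDKN2D (p19) rose, with log2 fold changes of 1.36 ± 0.19 and 2.09 ± 0.22. CDKN1C had 159.7, 131 and 154 CPM at Day 5 and 472, 243 and 425 CPM at Day 12. CCNE1 (cyclin E1), which starts S phase, fell with 32.3, 33.6 and 28.9 CPM at Day 5 and 20.03, 10.7 and 13.6 CPM at Day 12 (log2 fold change -1.10 ± 0.24), and so did MYBL2, an activator of S and G2 genes (log2 fold change -0.86 ± 0.19). Of 25 tested members 5 rose and 7 fell, the latter 4 without Day 5 library 1 or without Day 5 library 2.

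**Figure D4:**
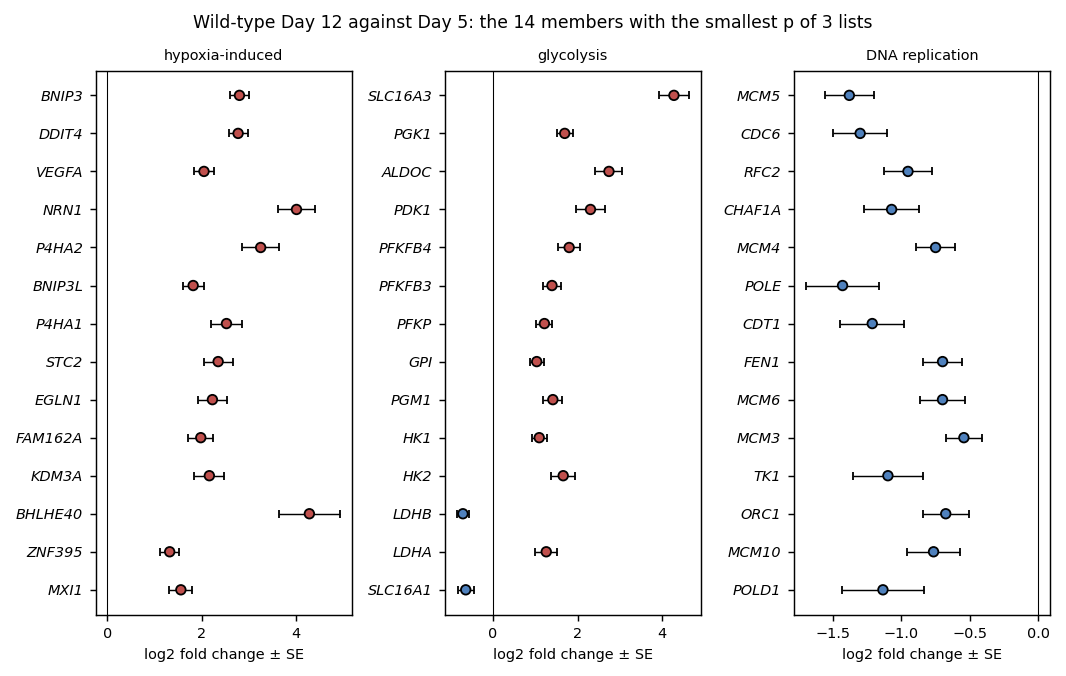
Log2 fold change from Day 5 to Day 12 in wild-type organoids with its standard error for the 14 members with the smallest p of the hypoxia, glycolysis and replication lists (red rose, blue fell); members were picked by p, so the panels do not show whole lists. All 14 hypoxia genes lie above 0 and all 14 replication genes below, and LDHB and SLC16A1 lie below 0 among the glycolysis genes.

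Signalling genes moved in both directions. Of 24 tested FGF genes 12 rose and 1 fell, among them feedback inhibitors of the ERK pathway that FGFs drive. SPRY2 had 83, 81.1 and 89.3 CPM at Day 5 and 184, 191 and 128 CPM at Day 12 (log2 fold change 0.98 ± 0.19), and SPRY1 and IL17RD, which act likewise, rose by 1.72 ± 0.32 and 1.61 ± 0.28 on the log2 scale. FGF18, a ligand, had 11.3, 8.79 and 15.8 CPM at Day 5 and 65.9, 44 and 32.1 CPM at Day 12 (log2 fold change 1.97 ± 0.32). FGFR3, a receptor of posterior cortical progenitors, rose (log2 fold change 1.15 ± 0.20), while FGFR1, the receptor of the anterior telencephalon, was the member that fell (log2 fold change -0.76 ± 0.19).

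In the BMP and TGF-beta list 13 of 30 tested members rose and 2 fell. FST (follistatin), a secreted antagonist of activins, fell most, from 654, 525 and 670.4 CPM to 51, 79.3 and 88.1 CPM (log2 fold change -3.07 ± 0.22, adjusted p = 3.23e-10). BMP4, the ligand, had 5.31, 13.3 and 15.6 CPM at Day 5 and 105, 27.1 and 34.6 CPM at Day 12; the log2 fold change was 1.43 without Day 12 library 1, against 2.26 ± 0.40 in the full set. The targets ID1, ID4 and SMAD7 rose by log2 fold changes of 0.86 ± 0.16, 2.46 ± 0.29 and 1.23 ± 0.25, and ID4 had 9.41, 7.44 and 12.9 CPM at Day 5 and 36.8, 78 and 49.2 CPM at Day 12. BAMBI, a decoy receptor, rose as well; the log2 fold change was 1.64 without Day 12 library 1, against 2.45 ± 0.37 in the full set.

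WNT genes were called in nearly equal number each way, 12 up and 10 down of 48 tested. WNT7A, a ligand of cortical progenitors, rose from 0, 0 and 1.58 CPM to 25.2, 21.4 and 31.1 CPM (log2 fold change 5.48 ± 0.67), and only Day 5 library 3 held counts of it at Day 5. WNT2B, a hem ligand, fell with 123, 87.7 and 140.3 CPM at Day 5 and 29.1, 51 and 30.7 CPM at Day 12 (log2 fold change -1.67 ± 0.33), and SP5, a direct target of WNT and beta-catenin, fell from 169.8, 170.59 and 252 CPM to 81.4, 70.5 and 50.6 CPM (log2 fold change -1.56 ± 0.33). FZD1, a receptor, rose and FZD7, another, fell, with log2 fold changes of 1.34 ± 0.20 and -0.63 ± 0.15. ALDH1A1, an enzyme of retinoic acid synthesis, had 1.45, 2.25 and 0.226 CPM at Day 5 and 16.8, 11.3 and 11.2 CPM at Day 12; the log2 fold change was 3.91 without Day 5 library 2, against 3.27 ± 0.60 in the full set.

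Collagens and other matrix genes rose more often than they fell. Of 28 tested collagens 14 rose and 1 fell, and of 40 other matrix genes 17 rose and 6 fell. SPARC, a collagen-binding matrix protein, had 20.7, 18.7 and 29.1 CPM at Day 5 and 210.0, 146 and 174 CPM at Day 12 (log2 fold change 2.95 ± 0.22, adjusted p = 3.23e-10), after 75.2, 92.2 and 74.5 CPM in stem cells. COL4A6, a basement membrane collagen, rose from 128, 123 and 148 CPM to 415, 790.1 and 538 CPM (log2 fold change 2.13 ± 0.23). COL4A1, the common basement membrane collagen, fell (log2 fold change -0.60 ± 0.16). Axon guidance genes rose in 8 of 33 tested: SLIT2 and SLIT3, repulsive ligands, by log2 fold changes of 2.07 ± 0.38 and 3.39 ± 0.46. The number of axon guidance genes that fell, 2, was 0 without Day 5 library 2 or Day 12 library 3 and 4 without Day 12 library 2. ITGA5, a fibronectin receptor subunit, fell from 149, 142 and 103 CPM to 58.8, 25.2 and 33.1 CPM (log2 fold change -1.75 ± 0.26).

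Ribosomal, chromatin and cholesterol genes showed few or mixed calls. Of 59 tested ribosomal proteins 3 rose and 5 fell, the latter 2 without Day 5 library 2 and 3 without Day 12 library 2. Of 34 chromatin genes 2 rose and 3 fell: without Day 5 library 1 none rose, and without Day 12 library 3 5 fell. Of 23 cholesterol genes 8 rose and 3 fell. SMARCD1, a BAF complex subunit, fell (log2 fold change -1.15 ± 0.18). FAM181A and ERBB4 were among the 15 largest rises but in none of the lists. FAM181A had 7.96, 4.06 and 12.9 CPM at Day 5 and 131, 172 and 197 CPM at Day 12. ERBB4, a neuregulin receptor, had 3.38, 4.28 and 7.22 CPM at Day 5 and 40.7, 76.7 and 53.5 CPM at Day 12.

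Of 17 tested p53 targets 4 rose and 3 fell, and of 23 chaperones of the endoplasmic reticulum 2 rose and 4 fell (2 without Day 5 library 2). Of 22 hedgehog and retinoic acid genes 5 rose and 3 fell. Without Day 12 library 2 those counts were 3 and 0, without Day 12 library 1 6 fell, and without Day 5 library 3 1 fell. Of 29 adhesion genes 7 rose and 3 fell, the former 4 without Day 5 library 1. Surface ectoderm had 2 that rose and 1 that fell of 17. Muscle had 2 and 1 of 7, and none rose without Day 5 library 2. None of 6 tested genes of endothelium and blood was called.

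The same step in LIS1+/- organoids, measured in other libraries, called 2020 genes (16.5%), of which 1087 rose (8.90%) and 933 fell (7.64%). Genes that rose in both genotypes numbered 667, which is 42.9% of those of the wild-type and 61.4% of those of LIS1+/-, and 508 fell in both (35.4% and 54.4%). The difference of the step itself was called for 129 genes (1.06%), 82 with the wild-type step above (0.671%) and 47 below (0.385%). That count was 75 without wild-type Day 5 library 1, 79 without wild-type Day 5 library 2, 84 without LIS1+/- Day 12 library 2 and 59 without LIS1+/- Day 12 library 3. Of the 27 tested hypoxia genes 19 rose and 2 fell in LIS1+/- organoids, where DDIT4 had a log2 fold change of 3.07 ± 0.21 and BNIP3 of 2.73 ± 0.21. The member of that list whose step differed was CITED2, a HIF antagonist, with log2 fold changes of -0.02 ± 0.16 in the wild-type and 0.96 ± 0.17 in LIS1+/- (difference -0.97 ± 0.23, adjusted p = 0.0338). That call was lost without each of 9 of the 12 organoid libraries in turn (adjusted p 0.0501 to 0.116); it held without wild-type Day 12 library 2, LIS1+/- Day 5 library 1 or LIS1+/- Day 12 library 3.

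Eye genes held the largest share of differences. Of 16 tested members 10 differed between the genotypes (6 without LIS1+/- Day 12 library 3, and 7 to 11 without any other organoid library), and in LIS1+/- organoids none rose and 10 fell (median log2 fold change -2.25, against 1.76 in the wild-type). With all libraries thinned to the depth of the smallest, 6 members differed, 5 of 12 tested rose in the wild-type and the wild-type median was 0.69. MAB21L1 had 15, 21.6 and 14.6 CPM at Day 5 and 6.18, 9.39 and 4.27 CPM at Day 12 in LIS1+/- organoids (difference of the log2 fold changes 5.31 ± 0.69, adjusted p = 1.72e-04), and the difference was 4.68 without wild-type Day 12 library 2. In the wild-type its log2 fold change was 3.33 without that Day 12 library 2. SIX6 had 115, 73.5 and 113 CPM at Day 5 and 6.80, 10.5 and 2.56 CPM at Day 12 in LIS1+/- organoids (difference 4.78 ± 0.82, adjusted p = 0.00796). Its wild-type values were 16.6, 22.3 and 16 CPM at Day 5 and 6.46, 75.5 and 19 CPM at Day 12, and the difference was 3.45 without wild-type Day 12 library 2 and 5.46 without LIS1+/- Day 12 library 2.

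NR2F1 rose by less in LIS1+/-, with a log2 fold change of 0.62 ± 0.17 (difference 1.25 ± 0.24, adjusted p = 0.00692). ZIC2, with no call in the wild-type, had a log2 fold change of 1.26 ± 0.14 in LIS1+/- (difference -1.41 ± 0.19, adjusted p = 1.72e-04). MEIS2, a homeobox factor of eye, forebrain and hindbrain, rose in the wild-type, with 20.3, 15.3 and 18 CPM at Day 5 and 58.2, 39.6 and 27.7 CPM at Day 12, and had a log2 fold change of -2.13 ± 0.32 in LIS1+/- (difference 3.35 ± 0.44, adjusted p = 1.72e-04). CD9, a tetraspanin of stem cells and glia, had 25.1, 33.4 and 33.1 CPM at Day 5 and 49.1, 43.4 and 35 CPM at Day 12 in the wild-type and no call, and a log2 fold change of 3.59 ± 0.23 in LIS1+/- (difference -3.13 ± 0.30, adjusted p = 9.82e-07). FAM181B rose in both, by 1.43 ± 0.27 in the wild-type and by 4.42 ± 0.31 in LIS1+/- on the log2 scale (difference -2.99 ± 0.40).

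**Figure D5:**
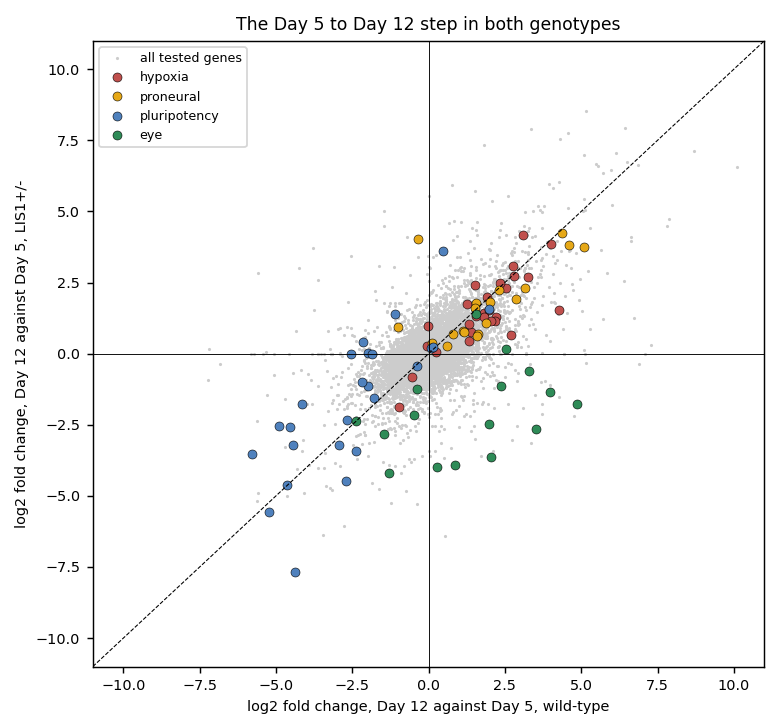
Log2 fold change from Day 5 to Day 12 in wild-type (x) and LIS1+/- organoids (y) for all 12215 tested genes (grey) and 4 lists in colour; the dashed line marks equal values. Hypoxia and proneural genes lie mostly in the upper right and pluripotency genes mostly in the lower left, while eye genes lie mostly below the dashed line.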

How the data were processed

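Human stem cell and cerebral organoid RNA was profiled by bulk MARS-seq in 18 libraries. The deposited values are raw counts per gene for each library; the submitters' processing notes name cutadapt, STAR and DESeq2, and the builds GRCh37 and hg38 without their roles. Versions, the annotation, the use of molecular identifiers and the use of strand are not given in the sources used here. Genes with near-identical copies and overlapping or antisense partners are therefore uncertain. Rows that name no gene were left out. They held 61.5% to 70.6% of the counts in the wild-type stem cell libraries and 49.8% to 55.75% in the wild-type organoid libraries. Stem cell levels set beside organoid levels are given without a test.

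Counts were fitted over all 18 libraries and 6 groups with the robust quasi-likelihood test of edgeR 4.0.16 (limma 3.58.1, R 4.3.3; TMM scaling, filterByExpr, 12 residual degrees of freedom), with Benjamini-Hochberg adjustment over 12215 genes and a threshold of 0.05. Errors of log2 fold changes are standard errors. Levels are CPM on TMM-scaled library sizes. The fit was tested on simulated counts of 11111 genes in the 6 groups of the 18 libraries. It recovered 43.7% of genes changed 2-fold and 88.4% of those changed 4-fold, and 2.42% of its calls were unchanged genes. In the simulation all groups shared their means apart from the few changed genes, and both days had the same spread. In the data many more genes differed and the Day 12 libraries varied more, so these rates need not hold for the wild-type comparison. Other settings were size factors of DESeq2 1.42.0, its test, another filter, the compared libraries alone, the replicate number as a block, counts thinned to the smallest library, removal of the trend with GC content, and leaving out each library. The fit without the 3 libraries that stand apart in GC content was chosen after seeing the data.

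The members and the 39 gene lists were chosen with earlier results of these data known. Named genes were the 15 largest rises and falls whose higher group had a mean of at least 50 CPM and whose days did not overlap, up to 8 members per list by smallest p, a set of fixed markers, and 5 genes per direction for the difference between genotypes. The text names part of these; some genes are not reported here. ALB, CITED2, COL4A1, DLL1, DPPA4, EGLN1, FZD7, HES5, HK2, HOXB2, HTR2C, IRX3, KCNJ13, KRT5, LDHA, LDHB, LMX1A, MYOG, NKX2-1, OTX2, PDGFRB, PECAM1, PTPRC, RPE65, SIX6, SLC16A1, SLC17A6, SP5, TBR1, TFAP2C, TP63 and WNT3A fall outside this rule and were chosen after their values were seen. Promoter sequences are from RefSeq (GRCh38.p14) and were matched by symbol for 9189 of the 12215 tested genes. Intervals of count ratios are exact binomial ones and, like floors, cover counting error only.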

Additional observations from a re-analysis of the deposited data

Results flagged for a closer look

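The Day 5 to Day 12 step differed between wild-type and LIS1+/- organoids, by the test of the difference in edgeR with Benjamini-Hochberg adjustment, for 22 of the genes named above. Differences are wild-type minus LIS1+/- log2 fold changes. Factors of eye and forebrain had the wild-type step above: MAB21L1 by 5.31, SIX6 by 4.78, VAX2 by 4.43 (adjusted p = 4.30e-04), LHX2 by 2.05 (adjusted p = 0.0117), SIX3 by 1.48 (adjusted p = 0.00817), MEIS2 by 3.35 and NR2F1 by 1.25. The pigment gene PMEL differed by 1.35 (adjusted p = 0.0403) and the retinoic acid enzyme ALDH1A1 by 3.88 (adjusted p = 0.0147). OTX1 went the other way, at -1.21 (adjusted p = 0.0157).

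Further genes with the wild-type step above were BMP4 at 2.69 (adjusted p = 0.0192), TRIB3 at 1.70 (adjusted p = 0.0317), DDIT3 at 1.35 (adjusted p = 0.0405), DLK1 at 1.32 (adjusted p = 0.0366) and CCND2 at 1.10 (adjusted p = 0.0257). Genes with the wild-type step below were CD9 at -3.13, FAM181B at -2.99, ITGA5 at -1.70 (adjusted p = 0.0155), ZIC2 at -1.41, GAP43 at -1.21 (adjusted p = 0.0223), SMARCD1 at -1.04 (adjusted p = 0.0367) and CITED2 at -0.97.

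Many of these calls lie near the threshold. Besides CITED2, the difference was no longer called without each of 10 of the 12 organoid libraries in turn for DDIT3 and PMEL, of 9 for CCND2, DLK1 and SMARCD1, of 8 for TRIB3, of 3 for BMP4 and GAP43, and of 1 for ALDH1A1, ITGA5 and OTX1. Without wild-type Day 12 library 1 the difference of BMP4 was 1.86, without wild-type Day 12 library 2 that of VAX2 was 3.72, and without wild-type Day 5 library 2 that of ALDH1A1 was 4.499. The calls of MAB21L1, SIX6, VAX2, LHX2, SIX3, MEIS2, NR2F1, CD9, FAM181B and ZIC2 held without each of the 12 libraries in turn.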

How the results depend on the processing

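The number of genes called in the wild-type comparison, 2990, lay between 2114 and 3368 over all settings and between 2114 and 2926 with 1 library left out. With the compared libraries alone it was 2486 of 11374 tested. Of 118 called genes named above 114 were called in every setting, and none changed sign. Many of them were picked by a small p or a large change in these same data. The share therefore does not describe called genes at large, and other called list members did lose the call with 1 library left out. EMX2, LHX2, SLC16A1 and SOX10 lost the call in at least 1 setting; with the compared libraries alone LHX2 had an adjusted p of 0.0505 and SOX10 of 0.0624, and without the 3 libraries that stand apart in GC content LHX2 had 0.109. The cause was not tested. In LIS1+/- organoids the count of 2020 lay between 1317 and 1921 with 1 library left out. For the difference between genotypes the count of 129 was 363 with no filter beyond 1 count, 205 with DESeq2, 77 with the compared libraries alone, 73 with thinned counts and between 59 and 170 with 1 library left out, and fewer libraries or counts entered the settings with the low counts.

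With thinned counts 3 caudal brain genes and 5 axon guidance genes rose and 4 cell cycle control genes fell, with the compared libraries alone 5 neural crest genes rose and 3 genes of the integrated stress response fell, without the filter 8 caudal brain genes rose and 8 ribosomal proteins fell, and with the GC trend removed 2 microtubule genes fell.

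The labels do not say whether the replicate numbers pair the libraries. Same-numbered wild-type libraries of Day 5 and Day 12 had correlations of deviations of -0.04, -0.115 and -0.074. Those with different numbers had -0.023 to 0.081. With 3 libraries per group these values cannot show whether libraries shared a culture. With the replicate number as a block 2988 genes were called in the wild-type, 2009 in LIS1+/- and 126 for the difference, and no wild-type call of a named gene was lost.

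Some uncalled genes changed sign between settings. With 1 library left out CITED2 lay between -0.053 and 0.024, DLL1 between -0.13 and 0.30, EOMES between -1.04 and 0.19, FABP7 between -0.20 and 0.46, HES5 between -1.04 and 0.22, IRX3 between -0.77 and 0.74, OTX2 between -0.21 and 0.26, PAX6 between -0.14 and 0.13, SIX6 between -0.48 and 1.33 and WNT3A between -0.0073 and 1.13. CITED2 was at 0.0183 with DESeq2, 0.0184 with its size factors and 0.0170 with thinned counts, and PAX6 was at -0.0179 without the filter. With the GC trend removed FABP7 was at -0.032, HES5 at 0.0060 and ZIC2 at 0.23. Without the 3 libraries that stand apart in GC content HES5 was at 0.22, OTX2 at -0.21 and SIX6 at -0.47. At the depth of the Day 12 libraries a gene without counts may stand at up to 0.578 CPM.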

Other observations

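Some hindbrain, interneuron and mesenchyme genes failed the filter on low counts but were detected in Day 12 library 1. HOXB2 had 43.9, 0 and 8.27 CPM in the 3 Day 12 libraries, DLX2, a factor of ventral forebrain interneurons and of neural crest, had 50.4, 1.89 and 13.6 CPM, APOA2, an apolipoprotein of liver and yolk sac, had 47.8, 0 and 6.81 CPM, and DCN (decorin), a matrix protein of fibroblasts, had 15.5, 0.629 and 5.35 CPM. NEUROD1, a factor of new neurons, had 13.6, 1.26 and 5.84 CPM. In each of these 5 genes library 1 was highest and library 2 lowest. DLX2, APOA2, DCN and NEUROD1 were chosen after their values were seen.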
